A study of Mus musculus with 12 samples.

Results

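The genes described here encode the SNARE and synaptotagmin machinery of vesicle fusion: syntaxins, VAMPs, the SNAP25 family, syntaxin-binding proteins, NSF and its SNAP adaptors, synaptotagmins, complexins, Rab3 GTPases, the vesicle proteins Syp and Sv2a, and the dynamins. Members were taken by gene symbol, not by a measured value, though earlier results of these data were known when they were chosen. Every probe annotated to one of the 47 symbols was used. Of these genes, 46 had at least 1 probe, and Stx4a had none in the annotation used. They account for 79 of the 44505 probes in the table. The members were divided into 20 genes of a neuronal class (Stx1a, Vamp1, Vamp2, Snap25, Syt1, Syt2, Syt4, Syt5, Syt7, Syt11, Syt13, Napb, Syp, Sv2a, Rab3a, Rab3b, Cplx1, Cplx2, Dnm1 and Dnm3) and 27 paralogs of a broadly expressed class.

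RNA was measured on 12 single-colour Illumina mouse BeadChips, 2 per group, in 6 groups of immortalised cells of mouse striatal origin grown at 33 °C. The Hdh109/109 line comes from a homozygous knock-in mouse carrying 109 CAG repeats in the Hdh (Htt) gene, and the Hdh7/7 line from one carrying 7. Each line was transfected with DNRest, transfected with an empty vector, or left untransfected. DNRest is known from the field as a dominant-negative form of the repressor REST. Each genotype is represented by 1 line, so genotype and line cannot be told apart. The design text calls the RNA samples biological replicates, without saying what separates them, so p-values measure only the spread between the 2 arrays of a group, which may be technical.

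SNARE proteins drive membrane fusion: a VAMP on the vesicle zips together with a syntaxin and a SNAP25-type protein on the target membrane, and NSF with its SNAP adaptors takes the complex apart afterwards. Syntaxin-binding (Sec1/Munc18) proteins guide the assembly. At synapses Stx1a, Snap25 and Vamp2 form the complex, Syt1 and its relatives sense calcium, complexins clamp and promote fusion, Rab3 tethers vesicles, and Dnm1 recovers membrane. Broadly expressed paralogs such as Snap23, Vamp3, Napa and Dnm2 serve constitutive traffic in most cells. REST silences many neuronal genes in non-neuronal cells by binding the RE1 element.

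Because DNRest is meant to relieve REST, the 250 bases upstream of each RefSeq gene start (GRCm38.p6) were searched on both strands for the RE1 consensus, 21 letters long and scored by the number of letters matched. The consensus was taken from general knowledge of REST binding, not from the files, and another version of it would give other counts. The promoter table held 46 promoters of 38 members, and Snap25, Vamp2, Vamp3, Vamp7, Napg, Syt4, Syt5, Syt7 and Syt13 had no entry. The members' best windows matched 10 to 14 letters, with a median of 12, which was also the median over all 32851 promoters. At least 15 letters matched in 0 of the 46 member promoters and in 0.785% of all promoters. Outside the members, the same search found 15 or more letters in 4 of 104 promoters of other vesicle fusion genes, with 18 in Scamp5, 17 in Syn1 and in Rph3a, and 16 in Syt6. Rph3a and Syt6 were detected on no array, those with DNRest included. The pieces below show these 4 matches beside the best member windows (Syt2 and Napa, 14 letters each) and the windows of Stx1a (12 letters) and Cplx1 (11 letters), whose values are described later. Each is written 5′ to 3′ on the strand of its gene, and capitals mark the best-matching window, which in Rph3a, Syt6, Napa and Cplx1 matched on the opposite strand. A match is a description of letters only, and RE1 elements also lie in introns and further upstream, which were not searched.
Syn1 (chrX:20921110-20921168, minus strand): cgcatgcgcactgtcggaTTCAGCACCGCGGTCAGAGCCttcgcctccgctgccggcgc
Scamp5 (chr9:57468174-57468234, minus strand): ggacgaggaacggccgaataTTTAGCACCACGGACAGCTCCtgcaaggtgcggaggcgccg
Rph3a (chr5:121009594-121009654, minus strand): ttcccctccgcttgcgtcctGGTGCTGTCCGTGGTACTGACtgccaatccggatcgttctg
Syt6 (chr3:103575876-103575922, plus strand): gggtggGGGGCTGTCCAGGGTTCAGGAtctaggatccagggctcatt
Syt2 (chr1:134646468-134646528, plus strand): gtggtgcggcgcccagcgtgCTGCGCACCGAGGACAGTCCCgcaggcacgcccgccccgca
Napa (chr7:16098437-16098497, plus strand): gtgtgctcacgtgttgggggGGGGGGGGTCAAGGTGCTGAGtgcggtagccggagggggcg
Stx1a (chr5:135023409-135023469, plus strand): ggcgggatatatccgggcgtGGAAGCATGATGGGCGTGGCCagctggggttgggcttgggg
Cplx1 (chr5:108550126-108550186, minus strand): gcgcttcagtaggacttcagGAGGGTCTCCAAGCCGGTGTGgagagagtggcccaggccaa

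Groups follow the sample titles, which match the genotype and transfection fields. On 6 arrays a second field, the source name, names the opposite line; the title was followed. Htt, the knocked-in gene, was not detected on any Hdh109/109 array (group means of 4.92 with DNRest, 5.43 with empty vector and 5.11 untransfected, log2 signal) and averaged 6.91, 6.71 and 6.86 in the matching Hdh7/7 groups. The Rest probe was not detected on any array, so the construct could not be checked by it. Between 10295 and 14370 probes were detected per array. The median signal lay between 70.2 and 104 on 10 arrays and at 161 and 156 on Hdh7/7 empty vector replicate 2 and Hdh109/109 untransfected replicate 2. Correlations over all probes were 0.979 to 0.994 within groups and 0.938 to 0.964 between lines. Of 10 neuron markers, Map2, Ncam1, Stmn2 and Tubb3 were detected on at least 2 arrays, whereas Rbfox3, Dcx, Nefl, Nefm, Elavl3 and Elavl4 were detected on none. Of the striatal neuron markers with a probe, Foxp1 and Penk were detected and Drd1, Drd2, Ppp1r1b, Bcl11b, Gad1, Gad2 and Tac1 were not. No Hdh7/7 array detected Penk. The detected neuron markers were not alike in the lines. Untransfected, Stmn2 was higher in Hdh109/109 cells and Ncam1 and Map2 were lower, by the tests described below.

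The neuronal class was largely undetected in these cells and the broad class largely detected. A probe counted as detected at a detection p below 0.01, and a probe entered the test if at least 2 of the 12 arrays detected it. This held for 8 of 37 neuronal-class probes (21.6%) and 32 of 42 broad-class probes (76.2%), against 41.7% of all probes with 1 gene symbol. At gene level, 7 of 20 neuronal-class genes were tested (Stx1a, Vamp2, Napb, Sv2a, Rab3a, Rab3b and Dnm1), against 23 of the 26 broad-class genes with a probe. Stx1a and Vamp2 were the neuronal-class genes detected on all 12 arrays, whereas 20 broad-class genes were. The classes are defined by where the genes are known to be expressed, so no test was made of this contrast.

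All 7 synaptotagmins (Syt1, Syt2, Syt4, Syt5, Syt7, Syt11 and Syt13), most of them calcium sensors or their relatives, were undetected on every array, with log2 signals between 4.42 and 5.44 over 12 probes. Snap25, the synaptic partner of Stx1a, stayed between 4.5 and 5.13, and the vesicle protein Syp between 4.73 and 5.65. Cplx2 was also never detected, nor was Dnm3, with 4 probes between 4.53 and 5.25. Vamp1 was detected on 1 array, Hdh7/7 empty vector replicate 2, with a log2 signal of 7.04 on probe 2, where its median over the arrays was 5.5. In the broad class, Stx2 and Stx3, plasma membrane syntaxins, were never detected, and Stx16, a Golgi syntaxin, was detected on 1 array. An undetected probe sets no level, and signal near background can reflect a poor probe as well as little RNA.

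**Figure D1:**
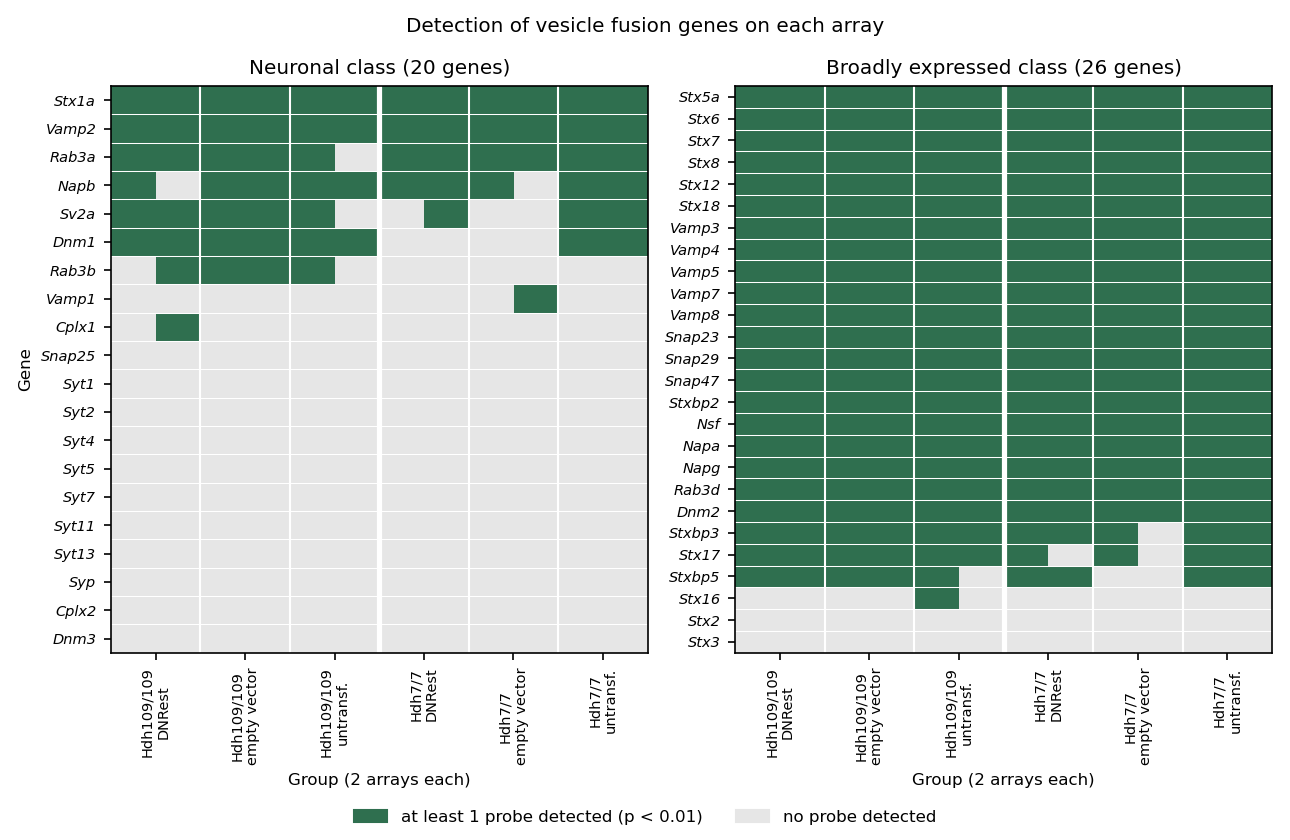
Detection of each member gene (rows) on each of the 12 arrays (columns, 2 per group), with dark cells where at least 1 probe had a detection p below 0.01. In the neuronal class Stx1a and Vamp2 fill all 12 columns and 11 genes fill none. In the broad class 20 genes fill all 12 columns.

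The number of neuronal-class genes detected on both arrays of a group was 5 in DNRest, 7 in empty vector and 4 in untransfected Hdh109/109 cells, against 4 in DNRest, 3 in empty vector and 6 in untransfected Hdh7/7 cells. For the broad class the counts were 23, 23 and 22 of 26 in DNRest, empty vector and untransfected Hdh109/109 cells, against 22, 20 and 23 in the matching Hdh7/7 groups. The lowest counts of both classes were in Hdh7/7 empty vector cells, whose replicate 2 is one of the arrays with a high median signal. DNRest did not bring the undetected synaptic genes above the detection limit in either line, apart from Cplx1 on 1 array.

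Differences between the Hdh109/109 and Hdh7/7 lines were about as frequent among the members as among all probes. With DNRest, the Hdh109/109 signal was higher for 11 and lower for 4 of 40 tested member probes (37.5%, against 36.8% of all 15224 probes tested). With empty vector 15 were higher and 3 lower (45%, against 43.2%), and in untransfected cells 7 were higher and 7 lower (35%, against 35.6%). Calls are limma tests at a Benjamini-Hochberg adjusted p below 0.05 over all probes. No Hdh7/7 array of the state detected the probe in 3 of these calls with DNRest, 6 with empty vector and 1 untransfected, and the size of such a difference is not measured. It is given below as a minimum fold, which sets the brighter group against the lowest detected signal on the dim group's arrays, or the dim probe's own signal where that is higher, and is left out where that minimum is under 1. Over all probes tested, 2767 were higher and 2829 lower with DNRest, 3490 and 3085 with empty vector, and 2680 and 2742 untransfected. The members' median log2 fold change (Hdh109/109 minus Hdh7/7) was 0.17 with DNRest, 0.33 with empty vector and 0.06 untransfected, beside -0.02, 0.04 and 0.02 over all probes. When arrays were scaled to one median in place of quantile normalization, the members' split was 13 higher and 1 lower with DNRest, 28 and 1 with empty vector, and 3 and 2 in untransfected cells, while the median of all probes moved to 0.17, 0.62 and 0.03. Without single arrays the number of calls fell to 7 with DNRest (without Hdh109/109 DNRest replicate 1) and 9 (without Hdh7/7 DNRest replicate 2), to 11 with empty vector (without Hdh109/109 empty vector replicate 2), and to between 5 and 8 untransfected (without any one of the 4 untransfected arrays). Of the 8 neuronal-class probes, 4 were higher and 1 lower with DNRest, 5 and 2 with empty vector, and 2 and 2 untransfected (62.5%, 87.5% and 50%). Of the 32 broad-class probes, 7 were higher and 3 lower with DNRest, 10 and 1 with empty vector, and 5 and 5 untransfected (31.2%, 34.4% and 31.2%). The neuronal-class shares rest on 8 probes, several near the detection limit, and were not tested against those of all probes.

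Other gene groups also separated the lines. The summed normalized signal of 5 neural progenitor markers was 757 to 1060 over the 6 Hdh109/109 arrays and 5150 to 6460 over the 6 Hdh7/7 arrays. That of 6 mesenchymal markers was 24500 to 28200 in Hdh109/109 cells and 8910 to 12200 in Hdh7/7 cells. Each marker had a probe detected on at least 2 arrays, but not always in both lines. The tested probes of Sox2, Pax6 and Prom1 were detected on no Hdh109/109 array. Those of Col1a2, Pdgfra and Dcn that were called between the lines were detected on no Hdh7/7 array. The largest part of the mesenchymal sum came from 1 Acta2 probe that was bright in both lines. It was higher in Hdh109/109 cells by 1.86-fold with DNRest, 1.46-fold with empty vector and 1.88-fold untransfected. That sum therefore does not weigh the 6 markers evenly. The lower sum of each list also includes signal not above background, so the sums do not measure the size of the marker differences. The part of these markers in the member differences was not tested. In bulk RNA, a change in the share of cells that express a gene and a change in RNA per cell cannot be told apart.

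Of the 40 tested probes, 25, from 21 genes, were called between the lines in at least 1 state and 15 in none. The probes of 6 genes were called with one sign in all 3 states, which is 15% of the tested member probes against 17.8% of all probes. Stxbp2, Stx1a, Dnm2 and Rab3b were higher in Hdh109/109 cells and Vamp5 and Vamp2 lower. The Rab3b probe was detected on 4 Hdh109/109 arrays and no Hdh7/7 array, so it entered the test only through the line in which it is higher. A probe of Stxbp3 was the only one called with both signs.

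**Figure D2:**
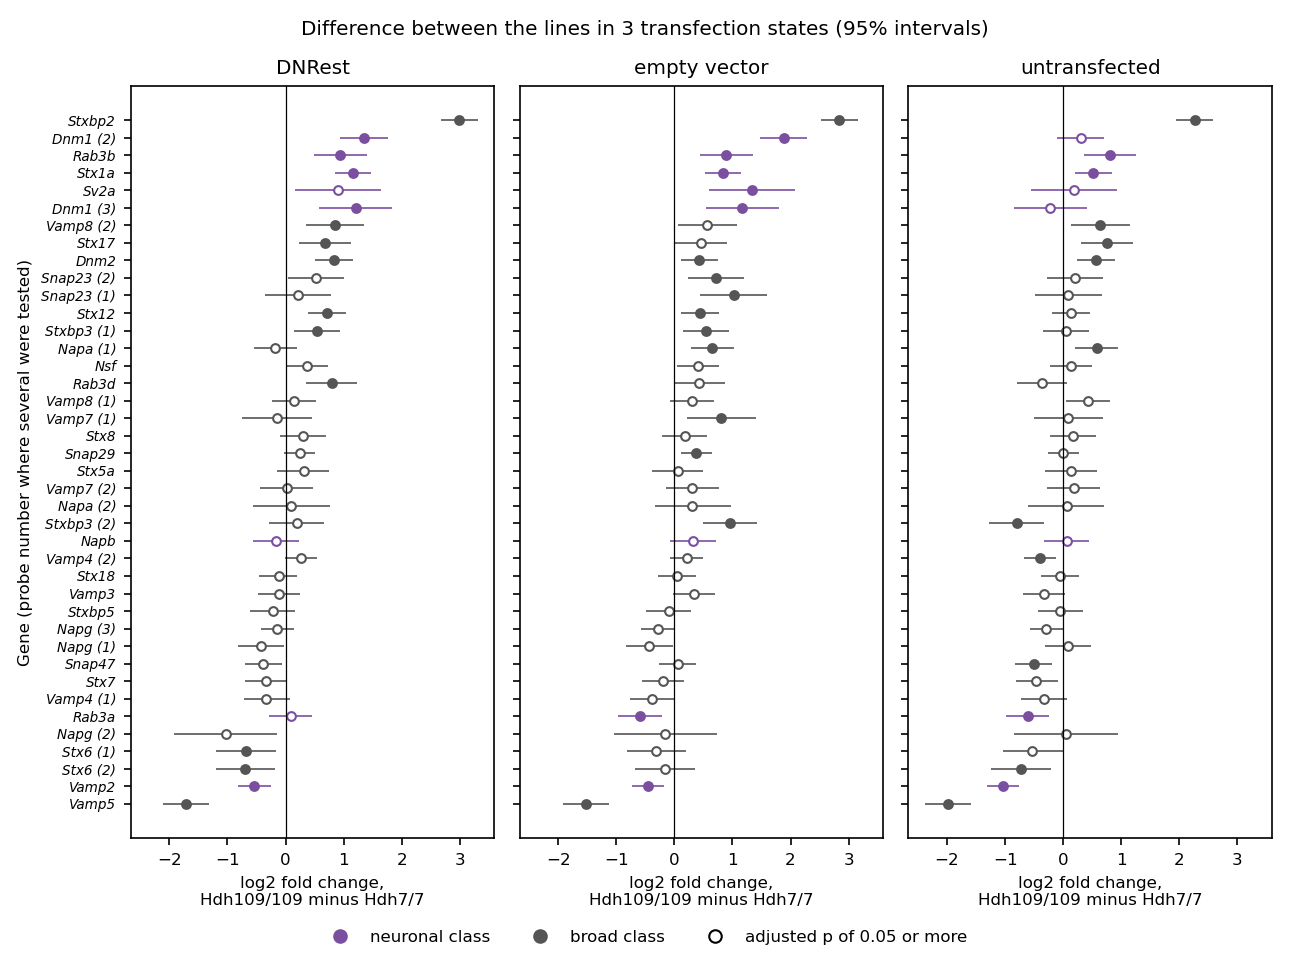
The log2 fold change between the lines (Hdh109/109 minus Hdh7/7) of the 40 tested member probes, with 95% intervals, in DNRest, empty vector and untransfected cells. Filled points passed an adjusted p of 0.05, and for Rab3b, Snap23 probe 1, Dnm1, Sv2a and Stxbp3 probe 2 some points are fitted against a group in which no array detected the probe. Stxbp2 lies furthest right in every panel (2.27 to 2.99) and Vamp5 furthest left (-1.98 to -1.52).

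Stxbp2 (Munc18-2), a syntaxin-binding protein used in secretion from epithelial and blood cells, had the largest difference among the members. Its log2 signal in Hdh109/109 cells was 10.45 and 10.44 with DNRest, 10.46 and 10.53 with empty vector, and 10.32 and 10.54 untransfected. Hdh7/7 arrays gave 7.51 and 7.39 with DNRest, 7.51 and 7.8 with empty vector, and 8.2 and 8.13 untransfected. All 6 Hdh109/109 arrays lay above all 6 Hdh7/7 arrays. The log2 fold change was 2.99 ± 0.14 (SE) with DNRest (7.97-fold, adjusted p = 1.89e-07), 2.84 ± 0.14 with empty vector (adjusted p = 2.4e-07) and 2.27 ± 0.14 untransfected (adjusted p = 1.39e-06). These calls held under all 22 alternative settings.

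Stxbp3 (Munc18-3), which binds plasma membrane syntaxins in many tissues, had 2 tested probes that disagreed. Probe 2 gave 5.36 and 5.69 with DNRest, 6.02 and 6.52 with empty vector, and 6.03 and 6.15 untransfected in Hdh109/109 cells. The Hdh7/7 line had 5.22 and 5.45 with DNRest, 5.42 and 5.21 with empty vector, and 7.1 and 6.69 untransfected. The probe was undetected on all 4 DNRest arrays, on both Hdh7/7 empty vector arrays and on Hdh109/109 untransfected replicate 2. It was called higher in Hdh109/109 cells with empty vector (adjusted p = 0.00495), with no minimum fold, and lower untransfected (-0.80 ± 0.21, adjusted p = 0.0141). The untransfected call was lost without Hdh7/7 untransfected replicate 1 (-0.59, adjusted p = 0.115) or Hdh109/109 untransfected replicate 1 (-0.73, adjusted p = 0.0726). Probe 1 was higher with DNRest and with empty vector (0.54 ± 0.18 in each, adjusted p = 0.0369 and 0.0308) and not called untransfected. Both of those calls were lost without single arrays of the groups compared, with adjusted p of 0.0878 to 0.17 for DNRest and 0.0771 to 0.197 for empty vector. Stxbp5 (tomosyn), which competes with VAMPs for syntaxin, was called in no state.

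Among the syntaxins, the synaptic Stx1a stood highest in the DNRest arrays of Hdh109/109 cells. Its log2 signal in that line was 9.3 and 9.23 with DNRest, 8.88 and 8.74 with empty vector, and 8.29 and 8.45 untransfected. For Hdh7/7 cells the signals were 7.99 and 8.22 with DNRest, 8.03 and 7.92 with empty vector, and 7.95 and 7.76 untransfected. The lines did not overlap in any state. The log2 fold change was 1.16 ± 0.14 with DNRest (adjusted p = 0.00015), 0.84 ± 0.14 with empty vector (adjusted p = 0.00113) and 0.52 ± 0.14 untransfected (adjusted p = 0.0163). The untransfected call was lost without replicate 2 of Hdh109/109 (0.44, adjusted p = 0.101) or of Hdh7/7 (0.43, adjusted p = 0.108). Neither the empty vector response (0.43 ± 0.14, adjusted p = 0.138) nor the DNRest response (0.46 ± 0.14, adjusted p = 0.353) passed the test within Hdh109/109 cells.

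Of the broadly expressed syntaxins, 7 had a tested probe, detected on 10 to 12 arrays. Stx17, an autophagosome syntaxin, had 7.19 and 6.8 with DNRest, 7.02 and 7.04 with empty vector, and 7.17 and 7.42 untransfected on probe 2 in Hdh109/109 cells, against 6.57 and 6.05, 6.43 and 6.7, and 6.52 and 6.55 in DNRest, empty vector and untransfected Hdh7/7 cells. The lines did not overlap in any state. Stx17 was higher with DNRest (0.68 ± 0.20, adjusted p = 0.0239) and untransfected (0.76 ± 0.20, adjusted p = 0.0152), and without single arrays of those groups the adjusted p reached 0.192 and 0.101. Stx6, a syntaxin of the trans-Golgi network, was lower with DNRest on both probes (-0.68 ± 0.23 and -0.69 ± 0.23, adjusted p = 0.0413 and 0.0392) and on probe 2 untransfected (-0.73 ± 0.23, adjusted p = 0.033). On probe 2 its signal was 7.19 and 7.72 with DNRest, 7.73 and 7.87 with empty vector, and 7.89 and 7.7 untransfected in Hdh109/109 cells, against 8.04 and 8.25, 8.26 and 7.65, and 8.41 and 8.63 in DNRest, empty vector and untransfected Hdh7/7 cells. The empty vector arrays of the lines overlapped. Every Stx6 call was lost without single arrays of the groups compared, the DNRest ones down to -0.33 (adjusted p = 0.313) on probe 1 and -0.43 (adjusted p = 0.268) on probe 2 without Hdh109/109 DNRest replicate 1. Stx12, an endosomal syntaxin, was higher with DNRest (0.71 ± 0.15, adjusted p = 0.00444) and with empty vector (0.44 ± 0.15, adjusted p = 0.0351), the empty vector difference falling to 0.28 (adjusted p = 0.188) without Hdh109/109 empty vector replicate 2. Stx5a, Stx7, Stx8 and Stx18 were called in no state.

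The VAMPs, the vesicle-side SNAREs, differed in both directions. Vamp5, a VAMP of muscle and other non-neuronal cells, had 7.22 and 7.28 with DNRest, 7.42 and 6.99 with empty vector, and 7.09 and 7.46 untransfected in Hdh109/109 cells. The Hdh7/7 values were 9.03 and 8.88 with DNRest, 8.74 and 8.71 with empty vector, and 9.16 and 9.35 untransfected. The lines were well separated in each state. The log2 fold change was -1.71 ± 0.18 with DNRest (adjusted p = 5.6e-05), -1.52 ± 0.18 with empty vector (adjusted p = 0.000108) and -1.98 ± 0.18 untransfected (adjusted p = 2.03e-05), and these calls held under all 22 alternatives.

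Vamp2 (synaptobrevin-2), the VAMP of synaptic vesicles, had 8.04 and 8.05 with DNRest, 8.13 and 8.28 with empty vector, and 8.28 and 8.2 untransfected in Hdh109/109 cells. Hdh7/7 arrays gave 8.57 and 8.59 with DNRest, 8.56 and 8.75 with empty vector, and 9.33 and 9.22 untransfected. All Hdh109/109 arrays lay below all Hdh7/7 arrays, and within Hdh7/7 the untransfected arrays stood above the rest. The log2 fold change was -0.54 ± 0.13 with DNRest (adjusted p = 0.00836), -0.45 ± 0.13 with empty vector (adjusted p = 0.0165) and -1.04 ± 0.13 untransfected (adjusted p = 0.000162). The untransfected call held under all 22 alternatives, whereas median scaling turned the empty vector difference to 0.3 (adjusted p = 0.437) and moved the DNRest one to -0.26 (adjusted p = 0.634). The empty vector call was also lost without Hdh109/109 empty vector replicate 1 (-0.38, adjusted p = 0.0614) or Hdh7/7 empty vector replicate 2 (-0.35, adjusted p = 0.108), and the DNRest call without Hdh109/109 DNRest replicate 1 (adjusted p = 0.0521) or Hdh7/7 DNRest replicate 2 (adjusted p = 0.0512).

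Its broadly expressed paralog Vamp3 (cellubrevin) had 10.12 and 10.18 with DNRest, 10.37 and 10.69 with empty vector, and 10.55 and 10.74 untransfected in Hdh109/109 cells. The Hdh7/7 line had 10.29 and 10.24 with DNRest, 10.28 and 10.12 with empty vector, and 11.14 and 10.81 untransfected. Vamp3 was called between the lines in no state, the largest difference being 0.33 ± 0.16 with empty vector (adjusted p = 0.123) and -0.33 ± 0.16 untransfected (adjusted p = 0.146). Vamp8, an endosomal and secretory granule VAMP, had 10.67 and 10.68 with DNRest, 10.75 and 9.99 with empty vector, and 10.54 and 10.7 untransfected on probe 2 in Hdh109/109 cells, against 9.81 and 9.82, 9.94 and 9.65, and 9.83 and 10.12 in DNRest, empty vector and untransfected Hdh7/7 cells. It was higher on probe 2 with DNRest (0.86 ± 0.22, adjusted p = 0.0138) and untransfected (0.64 ± 0.22, adjusted p = 0.0486) and not called on probe 1. Both Vamp8 calls were lost without any one array of the groups compared, with adjusted p of 0.0615 to 0.0672 for DNRest and 0.0748 to 0.233 untransfected. Vamp4 probe 2 was lower untransfected (-0.40 ± 0.12, adjusted p = 0.0323) and Vamp7 probe 1 higher with empty vector (0.81 ± 0.27, adjusted p = 0.0349), each not called on its other probe and lost without single arrays (adjusted p up to 0.135 and 0.258).

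**Figure D3:**
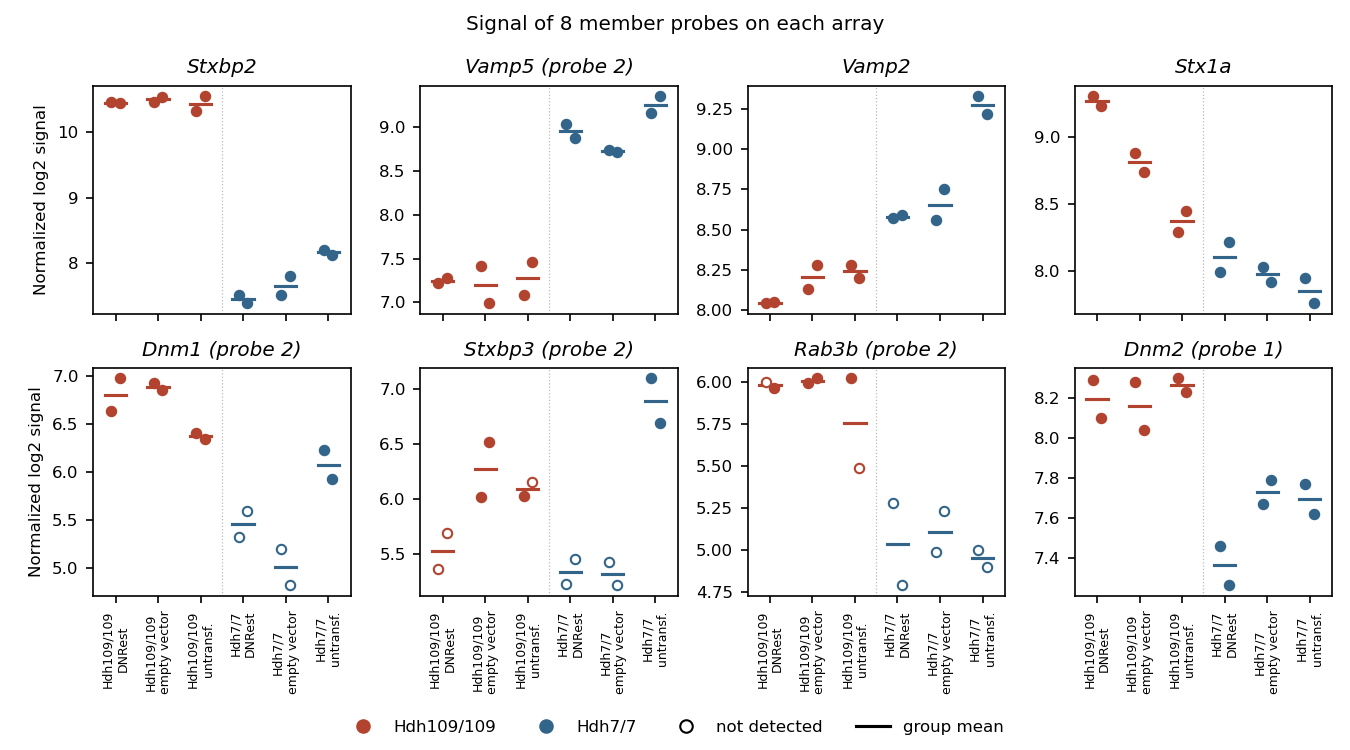
Normalized log2 signal of 8 member probes on each array, by line and transfection state, with group means as bars and open circles where the probe was not detected. Stxbp2 lies between 10.32 and 10.54 on all Hdh109/109 arrays and between 7.39 and 8.2 on all Hdh7/7 arrays, and Dnm1 probe 2 and Stxbp3 probe 2 are detected in Hdh7/7 cells only where untransfected. Vertical scales differ between panels and start above 0.

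In the SNAP25 family, the target-membrane SNAREs with no syntaxin anchor, the neuronal Snap25 was undetected and the broad Snap23, Snap29 and Snap47 were detected. Snap23, the widely expressed counterpart of Snap25, had 8.44 and 8.58 with DNRest, 8.61 and 8.97 with empty vector, and 8.02 and 8.57 untransfected on probe 2 in Hdh109/109 cells. The same probe in Hdh7/7 cells gave 8.15 and 7.81 with DNRest, 7.95 and 8.2 with empty vector, and 8.21 and 7.98 untransfected. On probe 2 Snap23 was higher in Hdh109/109 cells with empty vector (0.71 ± 0.22, adjusted p = 0.0238) and not called in the other states, where the untransfected arrays overlapped. Probe 1 was detected on 3 Hdh109/109 arrays and no Hdh7/7 array, so it entered the test only through the line in which it is higher. It was called with empty vector (adjusted p = 0.00971), with 5.88 and 5.94 in Hdh109/109 cells and 4.86 and 4.91 in Hdh7/7 cells, and no minimum fold could be given. Without Hdh109/109 empty vector replicate 2 neither probe passed (adjusted p = 0.148 for probe 2 and 0.0529 for probe 1), and probe 2 was also lost without Hdh7/7 empty vector replicate 1 (0.58, adjusted p = 0.0912). Snap29, which acts in endosomal and autophagic fusion, had 9.38 and 9.28 with DNRest, 9.42 and 9.53 with empty vector, and 9.18 and 9.19 untransfected in Hdh109/109 cells, against 9.06 and 9.11, 9.12 and 9.07, and 9.26 and 9.11 in DNRest, empty vector and untransfected Hdh7/7 cells. Snap29 was higher with empty vector (0.38 ± 0.12, adjusted p = 0.029). The call was lost without either Hdh7/7 empty vector array or without Hdh109/109 empty vector replicate 2, and held without Hdh109/109 empty vector replicate 1. With single arrays left out the difference was 0.32 to 0.44. Snap47 had 7.13 and 7.04 with DNRest, 7.43 and 7.47 with empty vector, and 7.2 and 7.3 untransfected in Hdh109/109 cells, against 7.39 and 7.54, 7.44 and 7.35, and 7.93 and 7.58 in DNRest, empty vector and untransfected Hdh7/7 cells. It was lower untransfected (-0.51 ± 0.14, adjusted p = 0.0204), and without Hdh7/7 untransfected replicate 1 the difference was -0.33 (adjusted p = 0.156).

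NSF, the ATPase that disassembles SNARE complexes, and its adaptors had calls between the lines for Napa alone. Nsf had 10.28 and 10.26 with DNRest, 10.1 and 10.32 with empty vector, and 10.02 and 9.89 untransfected in Hdh109/109 cells, against 9.96 and 9.83, 9.57 and 10.03, and 9.8 and 9.84 in DNRest, empty vector and untransfected Hdh7/7 cells, and was called in no state. The broad adaptor Napa (alpha-SNAP) was higher on probe 1 with empty vector (0.65 ± 0.17, adjusted p = 0.0108) and untransfected (0.58 ± 0.17, adjusted p = 0.0212) and not called on probe 2. Probe 1 gave 7.38 and 7.59 with DNRest, 8.08 and 7.97 with empty vector, and 7.68 and 8.02 untransfected in Hdh109/109 cells, against 7.57 and 7.75, 7.53 and 7.23, and 7.31 and 7.23 in DNRest, empty vector and untransfected Hdh7/7 cells. Without Hdh7/7 empty vector replicate 2 the empty vector value was 0.5 (adjusted p = 0.0715), and without Hdh109/109 untransfected replicate 2 the untransfected value was 0.41 (adjusted p = 0.151). Napg (gamma-SNAP) was called on none of its 3 tested probes, which ranged over the arrays between 7.59 and 8.46 (probe 1), 5.17 and 6.82 (probe 2) and 8.96 and 9.64 (probe 3). The neuronal adaptor Napb (beta-SNAP) had 6.18 and 5.86 with DNRest, 6.14 and 6.06 with empty vector, and 6.27 and 6.35 untransfected on probe 1 in Hdh109/109 cells, against 6.11 and 6.25, 6.02 and 5.55, and 6.17 and 6.33 in DNRest, empty vector and untransfected Hdh7/7 cells. The lines overlapped, the lowest array of each was below the detection limit, and the probe was called in no state. Napb probes 2 and 3 were detected on 0 and 1 arrays and not tested.

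The Rab3 GTPases and Sv2a, which act on the vesicle before fusion, lay near the detection limit apart from Rab3d. Rab3a, the abundant synaptic Rab3, had 6.09 and 6.42 with DNRest, 6.08 and 6.32 with empty vector, and 6.31 and 6.14 untransfected in Hdh109/109 cells. For Hdh7/7 cells the signals were 6.08 and 6.26 with DNRest, 6.75 and 6.84 with empty vector, and 6.69 and 6.98 untransfected. It was lower in Hdh109/109 cells with empty vector (-0.60 ± 0.17, adjusted p = 0.0166) and untransfected (-0.61 ± 0.17, adjusted p = 0.0176) and not called with DNRest (0.09 ± 0.17). Median scaling turned the empty vector difference to 0.11 (adjusted p = 0.799). The calls were lost without replicate 1 of Hdh109/109 (adjusted p = 0.0843) or replicate 2 of Hdh7/7 (adjusted p = 0.064) with empty vector, and without replicate 2 of Hdh109/109 (adjusted p = 0.102) or of Hdh7/7 (adjusted p = 0.126) untransfected.

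Rab3b, a Rab3 of neurons and endocrine cells, had 6.0 and 5.96 with DNRest, 5.99 and 6.02 with empty vector, and 6.02 and 5.49 untransfected on probe 2 in Hdh109/109 cells. In Hdh7/7 cells, where no array detected it, it had 5.28 and 4.79 with DNRest, 4.99 and 5.23 with empty vector, and 5.0 and 4.9 untransfected. It was called higher in Hdh109/109 cells in all states (adjusted p = 0.00529, 0.00603 and 0.012 with DNRest, empty vector and untransfected), but the bright side stood so close to the detection limit that no minimum fold could be given. It was lost without Hdh7/7 DNRest replicate 2 (adjusted p = 0.0525) and, untransfected, without Hdh109/109 replicate 1 (adjusted p = 0.0993) or Hdh7/7 replicate 2 (adjusted p = 0.0679). Rab3d, found in exocrine and other secretory cells, was higher with DNRest (0.80 ± 0.19, adjusted p = 0.00965), and 0.7 without replicate 1 of either line (adjusted p = 0.0713 and 0.0721).

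Sv2a, a synaptic vesicle membrane protein, had 6.5 and 6.68 with DNRest, 6.51 and 6.78 with empty vector, and 6.4 and 5.87 untransfected in Hdh109/109 cells. The Hdh7/7 values were 5.24 and 6.15 with DNRest, 5.72 and 4.88 with empty vector, and 5.97 and 5.94 untransfected. With empty vector it was undetected on both Hdh7/7 arrays and at least 1.22-fold higher in Hdh109/109 cells (fitted log2 fold change 1.34 ± 0.33, adjusted p = 0.00889). The Sv2a call was lost without replicate 2 of Hdh109/109 (1.17, adjusted p = 0.0622) or of Hdh7/7 (0.96, adjusted p = 0.0549), and the DNRest difference of 0.90 ± 0.33 was not called (adjusted p = 0.0568).

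Among the dynamins, GTPases that pinch off endocytic vesicles, Dnm1 and Dnm2 were higher in Hdh109/109 cells in both transfected states. Dnm1, the neuronal dynamin, had 6.64 and 6.98 with DNRest, 6.93 and 6.86 with empty vector, and 6.41 and 6.35 untransfected on probe 2 in Hdh109/109 cells. The Hdh7/7 signals were 5.32 and 5.6 with DNRest, 5.2 and 4.82 with empty vector, and 6.23 and 5.93 untransfected. It was detected on all Hdh109/109 arrays and, in Hdh7/7 cells, on the untransfected arrays only. Dnm1 was at least 1.67-fold higher with DNRest (fitted 1.35 ± 0.18, adjusted p = 0.000337) and at least 1.45-fold higher with empty vector (fitted 1.88 ± 0.18, adjusted p = 3.15e-05), and both calls held under the 21 alternatives that tested the probe. In untransfected cells the difference was 0.30 ± 0.18 (adjusted p = 0.243). Probe 3 was undetected on the 4 Hdh7/7 DNRest and empty vector arrays and on Hdh109/109 DNRest replicate 2. It was called at least 1.08-fold higher with DNRest (adjusted p = 0.00777) and, with no minimum fold, higher with empty vector (adjusted p = 0.00782), and each call was lost without 1 array (adjusted p = 0.0708 without Hdh109/109 DNRest replicate 1 and 0.0685 without Hdh109/109 empty vector replicate 2).

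The ubiquitous Dnm2 had 8.29 and 8.1 with DNRest, 8.28 and 8.04 with empty vector, and 8.3 and 8.23 untransfected in Hdh109/109 cells. Hdh7/7 arrays gave 7.46 and 7.26 with DNRest, 7.67 and 7.79 with empty vector, and 7.77 and 7.62 untransfected. Dnm2 was higher in Hdh109/109 cells in all states (0.84, 0.43 and 0.57 with DNRest, empty vector and untransfected, SE 0.14, adjusted p = 0.00151, 0.0361 and 0.0124). With empty vector the call was lost without either Hdh7/7 array or without Hdh109/109 replicate 1 (adjusted p of 0.0628 to 0.155) and held without Hdh109/109 replicate 2, and untransfected without Hdh109/109 replicate 1 (adjusted p = 0.0651) or Hdh7/7 replicate 2 (adjusted p = 0.0813). The difference was not called under median scaling in untransfected cells (0.61, adjusted p = 0.168).

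Transfection with the empty vector lowered 7 member probes of 6 genes in Hdh7/7 cells and none in Hdh109/109 cells. In Hdh7/7 cells this is 17.5% of the tested member probes, against 15.7% of all probes, with a median log2 fold change (empty vector minus untransfected) of -0.25 against -0.04 over all probes. Stxbp3 probe 2 was at least 1.45-fold lower (fitted -1.58 ± 0.21, adjusted p = 0.00187). Dnm1 was called lower on probes 2 and 3 (adjusted p = 0.00548 and 0.0218), with no minimum fold because neither empty vector array detected them. Vamp3 fell by 0.77 (adjusted p = 0.0124) and Vamp2 by 0.62 (adjusted p = 0.011). Stxbp2 (-0.51, adjusted p = 0.0376) and Vamp4 probe 2 (-0.47, adjusted p = 0.0305) completed the set. Without Hdh7/7 untransfected replicate 1, of the 7 calls only that of Stxbp3 remained, and without its replicate 2 there were 4. A fit on the Hdh7/7 arrays of these groups alone called 0 member probes and 1 of all probes.

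In Hdh109/109 cells 0 of 40 member probes were called for the empty vector, against 2.92% of all probes, and 7 had an unadjusted p below 0.05. The smallest adjusted p was 0.104, for Stx12 (0.52 on the log2 scale), which was called without Hdh109/109 empty vector replicate 1 (0.68, adjusted p = 0.037). The empty vector response differed between the lines for 3 member probes (7.5%, against 12% of all probes): Stxbp3 probe 2, Dnm1 probe 2 and Dnm1 probe 3 (adjusted p = 0.00666, 0.0056 and 0.0493). The Hdh109/109 response was the higher in each, and since no Hdh7/7 empty vector array detected these probes, the size of the difference is not measured. Without Hdh109/109 empty vector replicate 1 there were 6 such calls, with Vamp2, Vamp3 and Vamp7 added, and Dnm1 probe 3 was lost without Hdh109/109 empty vector replicate 2 (adjusted p = 0.156) and in 11 other settings. For Vamp2, Vamp3, Vamp4 and Stxbp2 the difference between the lines' responses did not pass the test on all arrays. The summed signal of 9 interferon response genes with a probe moved with transfection of the Hdh109/109 line. It was 17300 to 20400 with DNRest, 21900 to 25600 with empty vector and 2110 to 2350 untransfected. Over the 6 Hdh7/7 arrays it was 1350 to 1840. Of these genes, 8 were detected on at least 2 arrays, but no Hdh7/7 DNRest or empty vector array detected Ifit3, Irf7, Oasl2 or Rsad2. The part of these genes in the member results was not tested.

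DNRest, set against the empty vector, changed no member at this threshold in either line. In Hdh109/109 cells 0 of 40 probes were called (0.138% of all probes were), with 9 at an unadjusted p below 0.05 and a smallest adjusted p of 0.347. In Hdh7/7 cells 0 were called (0.0985% of all probes), with 5 at an unadjusted p below 0.05 and a smallest adjusted p of 0.435. The difference between the lines in this response was called for 0 members, with 4 at an unadjusted p below 0.05, and for 0% of all probes. Without Hdh109/109 empty vector replicate 1, Vamp7 was called in that line (-1.28, adjusted p = 0.0465), and without Hdh7/7 empty vector replicate 1, Napg was called in that line (1.5, adjusted p = 0.0223). The median over members was -0.03 in Hdh109/109 cells and 0.04 in Hdh7/7 cells. The 95% interval for Stx1a was 0.14 to 0.77 in Hdh109/109 cells and -0.19 to 0.44 in Hdh7/7 cells, and for Vamp2 -0.44 to 0.12 and -0.36 to 0.2. Rab3a had the smallest unadjusted p in Hdh7/7 cells, with -0.63 ± 0.17 (SE, adjusted p = 0.435).

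Cplx1, complexin 1, was left out of the test because 1 array detected it. Its log2 signal was 5.29 and 6.24 with DNRest, 4.62 and 4.59 with empty vector, and 4.81 and 4.73 untransfected in Hdh109/109 cells. The Hdh7/7 line had 5.57 and 5.68 with DNRest, 4.91 and 4.57 with empty vector, and 4.76 and 4.78 untransfected. All 4 DNRest arrays lay above the other 8. With no filter on dim probes, the fitted DNRest minus empty vector difference was 1.16 ± 0.25 in Hdh109/109 cells and 0.89 ± 0.25 in Hdh7/7 cells, and neither passed (adjusted p = 0.454 and 0.626). Cplx1 was chosen for mention after its values were seen.

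Unc13a and Syn1, genes of vesicle release outside the members, were higher with DNRest in both lines. A list of 99 other vesicle fusion genes had 90 with a probe and 68 tested probes of 48 genes. Of these, 3 probes rose with DNRest in each line (4.41%): 1 of Unc13a and 2 of Syn1. Of all probes tested, 0.138% were called in Hdh109/109 cells and 0.0985% in Hdh7/7 cells. The list was chosen with earlier results of these data known, so its share cannot show an excess. Unc13a (Munc13-1), which primes synaptic vesicles, had 7.63 and 7.44 with DNRest and 5.02 and 5.03 with empty vector in Hdh109/109 cells. For Hdh7/7 cells the signals were 7.71 and 7.55 with DNRest and 4.79 and 4.58 with empty vector. Unc13a was detected on the 4 DNRest arrays alone, so it entered the test only through the groups in which it is higher. It rose at least 3.41-fold in Hdh109/109 cells (adjusted p = 0.000167) and at least 2.41-fold in Hdh7/7 cells (adjusted p = 3.6e-05). Syn1 (synapsin I), a phosphoprotein that tethers synaptic vesicles and whose promoter piece is printed above, had 7.43 and 7.31 with DNRest and 4.94 and 5.12 with empty vector on one probe in Hdh109/109 cells. That probe in Hdh7/7 cells gave 7.58 and 7.77 with DNRest and 5.39 and 4.85 with empty vector. Untransfected, it gave 5.34 and 4.74 in Hdh109/109 cells and 6.15 and 5.85 in Hdh7/7 cells. In Hdh7/7 cells it was called lower with empty vector than untransfected (adjusted p = 0.0312). Both Syn1 probes were detected on 5 arrays, the 4 DNRest arrays and 1 untransfected Hdh7/7 array. They therefore entered the test only through the groups in which they are higher. The 2 probes rose at least 3.05-fold and 2.63-fold in Hdh109/109 cells and at least 2.48-fold and 2.14-fold in Hdh7/7 cells (adjusted p of 0.00156 to 0.00318). Scamp5, with the closest RE1 match of the list, had a difference of 0.47 ± 0.13 in Hdh109/109 cells and 0.49 ± 0.13 in Hdh7/7 cells and did not pass (adjusted p = 0.347 and 0.435). The Unc13a promoter matched 12 letters at best, equal to the median over all promoters. Whether RE1 matches go with the DNRest response was not tested.

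**Figure D4:**
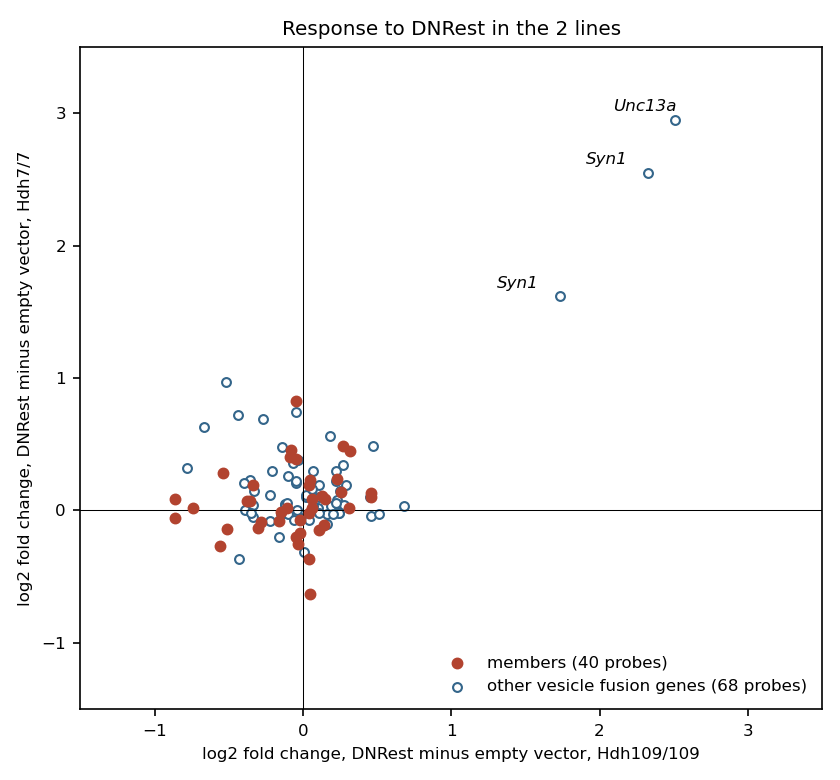
The log2 fold change of DNRest over empty vector in Hdh109/109 cells (horizontal) and Hdh7/7 cells (vertical) for 40 member probes and 68 probes of other vesicle fusion genes. Unc13a (2.51 and 2.95) and both Syn1 probes stand apart, and all member probes lie between -0.86 and 0.83.

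Calls between the lines were no more frequent among the other vesicle fusion genes than among all probes. Of the list's 68 tested probes, the Hdh109/109 signal was higher for 7 and lower for 11 with DNRest, 16 and 13 with empty vector, and 6 and 14 untransfected, shares of 26.5%, 42.6% and 29.4%, against 36.8%, 43.2% and 35.6% of all probes. Rab27a, a GTPase of secretory granules and lysosome-related organelles, was detected in no Hdh7/7 group, so it entered the test only through the line in which it is higher. Its Hdh109/109 signal was higher by at least 3.11-fold with DNRest, 2.76-fold with empty vector and 3.44-fold untransfected (adjusted p of 1.05e-06 to 4.13e-06). Dysf, dysferlin, a calcium-binding protein of membrane repair, was lower (-1.25, -1.44 and -2.36 with DNRest, empty vector and untransfected on its brighter probe). Rims2, an active zone scaffold, was lower on its brighter probe (-1.53, -2.18 and -1.99). Its other tested probe was called at least 1.2-fold lower with DNRest and 1.25-fold lower with empty vector. That probe was detected on 3 arrays, all of them Hdh7/7, so it entered the test only through the line in which it is higher. Stx11, a syntaxin of immune cell granules, was also lower (-0.78, -0.91 and -1.20). Esyt1, an endoplasmic reticulum tether to the plasma membrane, was higher (1.47, 1.64 and 0.69).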

How the data were processed

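Per the file headers, the authors deposited 1 table of probe signal intensities, not normalized, with a detection p-value beside each. A series matrix of log2 values was also deposited by the authors; its identifiers did not pair with the signal table's values (rank correlation 0.017 to 0.034), so it was not used. The submitters' processing notes name limma. Probes were named from the platform annotation: 28471 of 44505 had 1 symbol, 10 several and 16024 none.

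Background was corrected from the detection p-values with limma 3.58.1 in R 4.3.3 (normexp, offset 16) and arrays were quantile normalized to log2 signal. Probes detected at p below 0.01 on at least 2 of 12 arrays (15224) were fitted with 1 mean per group (6 residual degrees of freedom), moderated and adjusted by Benjamini-Hochberg over all probes, two-sided. In all, 9 comparisons were made. On simulated data for the untransfected comparison of 15224 probes, 53% of 2-fold and 97% of 4-fold changes were recovered with 6 false calls. The simulation changed a small part of the probes, in 1 group, with independent normal noise. In the real comparison 35.6% of probes were called, so these rates do not carry over to it. The 2 arrays per group limit the precision, as do signals near background.

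The members and all gene lists were chosen with earlier results of these data known. Values on every array are given for neuronal-class members detected on at least 2 arrays, for those called in all states, for up to 4 higher and 4 lower per comparison, and for paralogs of the SNAP25, VAMP2, dynamin and SNAP adaptor families, with Napg and undetected probes by their range. Alternatives covered scaling, background, filters, a fold minimum, the arrays in the fit, a replicate block and single arrays left out. Probes of a gene are numbered in the order of their identifiers. Microglia, oligodendrocyte and neuroendocrine markers were detected on no 2 arrays, of the endothelial markers Flt1 was, and of the astrocyte markers Gja1 and Slc1a3 were.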

Additional observations from a re-analysis of the deposited data

Results flagged for a closer look

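The response to the empty vector differed between the lines, by the test of the difference itself, for 3 member probes of 2 genes. No Hdh7/7 empty vector array detected any of these probes, so the values below are fitted differences against signal not above background and do not measure a size. Stxbp3 probe 2 was 0.18 higher with empty vector than untransfected in Hdh109/109 cells and 1.58 lower in Hdh7/7 cells on the log2 scale, a difference of 1.76 ± 0.30 (SE, adjusted p = 0.00666). For Dnm1 probe 2 the responses were 0.51 in Hdh109/109 cells and -1.07 in Hdh7/7 cells, a difference of 1.59 ± 0.26 (adjusted p = 0.0056). For Dnm1 probe 3 they were 0.23 and -1.16, a difference of 1.39 ± 0.40 (adjusted p = 0.0493). Interferon response genes differed in the same comparison, with 9 of 9 probes higher and a median of 3.17.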

How the results depend on the processing

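Of 57 called member changes, 12 kept the call under every alternative that tested them (Stxbp2 and Vamp5 in all states, Vamp2 untransfected, Stx1a with DNRest, Dnm1 probe 2 with DNRest and with empty vector, and the empty vector line differences of Stxbp3 probe 2 and Dnm1 probe 2), and 45 lost it in at least 1; 18 kept it whichever single array was left out. In all, 2 values reversed, both under median scaling between the empty vector lines: Vamp2 to 0.3 (adjusted p = 0.437) and Rab3a to 0.11 (adjusted p = 0.799).

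The counts in this paragraph are of member probes and describe how far the member calls depend on the setting. Most are given without the share of all probes, so they do not set the members apart from other probes. Median scaling gave 29 calls between the empty vector lines, 5 between the untransfected lines, 1 for DNRest in Hdh109/109 cells (Vamp7, -1.21), 16 for the empty vector in Hdh7/7 cells and 14 for its line difference. It also moved the median of all probes, to 0.62 between the empty vector lines, -0.45 for the empty vector in Hdh7/7 cells and 0.63 for its line difference. Without background correction there were 1 for the empty vector in Hdh109/109 cells and 6 for its line difference, and with probes detected on all 12 arrays 1 and 5. An offset of 50 gave 5 for the line difference. A 2-fold minimum left 5 (DNRest), 6 (empty vector) and 3 (untransfected) between the lines, 2 in all states and 3 for the empty vector in Hdh7/7 cells. Fits on only the arrays compared gave 9 between the empty vector lines and 0 for the empty vector in Hdh7/7 cells. Without both arrays of high median signal, an alternative chosen after seeing the data, 6 were called between the untransfected lines and 3 in all states. With no filter on dim probes, 1 of 39 untested member probes was called (Dnm3 between the empty vector lines, -0.42, adjusted p = 0.0357). In that comparison 6213 of all 44505 probes were called.

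Leaving out single arrays gave 7 to 18 calls between the DNRest lines, 11 to 18 between the empty vector lines, 5 to 16 between the untransfected lines and 3 to 7 in all states. The DNRest responses ranged from 0 to 1 in Hdh109/109 cells and 0 to 1 in Hdh7/7 cells, with 0 for their difference; the empty vector responses ranged from 0 to 1 in Hdh109/109 cells and 1 to 9 in Hdh7/7 cells, with 2 to 6 for their difference. With the replicate number as a block, 49 of 57 calls held. Differences between replicates 2 and 1 correlated between groups from -0.44 to 0.36, over 0.1 in 2 of 15 pairs. With 1 difference per group, and 2 of these including an array of high median signal, this cannot settle whether the numbers pair the arrays. The main fit used no pairing. The slide as a block was not run because the headers name no slide. Signals near background limit the neuronal class: 29 of its 37 probes were not tested.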
